A study of Ovis aries with 30 samples.

Results

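Genes of glucocorticoid hormone action were followed in brown adipose tissue (BAT) and thyroid tissue of newborn Romney lambs. They comprised the glucocorticoid receptor NR3C1, the mineralocorticoid receptor NR3C2, the cortisol-converting enzymes HSD11B1 and HSD11B2, and the target genes FKBP5, TSC22D3, ZBTB16, KLF9 and SGK1. They were taken by gene symbol from a list set up with earlier results of these data known, and are 9 of the 28524 genes in the count table. All 9 were present and were read in all 30 libraries. In BAT, SGK1 was upregulated in cold against AT lambs, and it was the only one of the 9 genes that passed the test between lambs of the same age.

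RNA-seq counts came from 15 lambs, with 1 library of BAT from around the kidneys and 1 library of thyroid tissue per lamb. Cold lambs (n = 6) had spent 2 days at 4 °C and ambient-temperature lambs (AT, n = 6) had spent 2 days at 20–22 °C. Control lambs (n = 3) were sampled as a baseline, about 24 h after lambing by the series description. The wording of the paper also allows an earlier time within the first 24 h. By either source they were the group closest to the cortisol surge of birth. All were Romney lambs of both sexes, 1 from each dam, without transgene or drug. Cold and AT lambs were matched in age, but both were sampled 2 days later in life than the controls, so that exposure and age cannot be told apart in comparisons with control. The tissues were sequenced in bulk, so that fewer cells of a type and less RNA per cell cannot be told apart either.

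Cortisol enters cells and binds the glucocorticoid receptor, which waits in the cytoplasm in a complex with heat shock proteins and immunophilins, then moves to the nucleus and switches genes on or off. How much cortisol reaches the receptor within a tissue depends on the local enzymes, since one regenerates cortisol from inactive cortisone and the other inactivates it. Around birth, the rise in cortisol prepares lung, liver, gut and BAT for life outside the uterus and raises the activation of thyroid hormone.

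The genes are located on the sheep genome build Oar_rambouillet_v1.0, which the count table uses, and each was counted over all its annotated exons. NR3C1, the receptor for cortisol in most cells, is at chr5:56688422-56808474 on the minus strand, with 7553 bases of exon. NR3C2, which binds aldosterone and cortisol with high affinity, is at chr17:10838547-11273303 on the plus strand, with 5900 bases of exon. HSD11B1, which regenerates cortisol, is at chr12:77036851-77105871 on the minus strand, with 2542 bases of exon. HSD11B2, which inactivates cortisol and so keeps it from NR3C2, is at chr14:37809865-37821242 on the plus strand, with 3724 bases of exon. FKBP5, an immunophilin that lowers the affinity of the receptor for cortisol and is itself induced by the receptor, is at chr20:11252822-11371510 on the minus strand, with 3811 bases of exon. TSC22D3, the leucine zipper protein known as GILZ, is at chrX:135917241-135984847 on the plus strand, with 3348 bases of exon. ZBTB16, the zinc finger repressor known as PLZF, is at chr15:27130871-27333884 on the plus strand, with 8029 bases of exon. KLF9, a Krüppel-like transcription factor induced by glucocorticoid and by thyroid hormone, is at chr2:71284364-71311713 on the plus strand, with 4107 bases of exon. SGK1, a kinase that raises sodium transport and is induced through both receptors, is at chr8:65604699-65612973 on the minus strand, with 3342 bases of exon.

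The total count per library ranged from 31556500 to 37025998 for BAT and from 25062784 to 30124871 for thyroid. Counts were divided by a size factor per library from ACTB, RPL19 and HUWE1, and the results are called normalised counts. In the thyroid, all 8 thyroid follicular cell markers were detected, with a summed level between 1325900 and 5877740 normalised counts, against 143 to 1572 in BAT. In BAT, all 8 brown adipocyte markers were detected, with a summed level between 28786 and 124076 in all libraries but that of Control 2, where it was 407013. This lamb also had the lowest endothelial marker level in BAT (14761, against 31692 to 58159 in the other lambs). The study left 1 control out of its analysis, and its per-lamb values match Control 1 and Control 3 in both tissues, so Control 2 is the lamb left out. Tests were therefore run with 2 controls and repeated with all 3 controls. In thyroid tissue, AT 3 and Control 1 stood apart by skeletal muscle markers, with summed levels of 2990100 and 259946 against 110 to 3620 in the other lambs.

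Levels of different genes were compared as normalised counts per kilobase of exon, on a scale shared by both tissues and over the 14 lambs used in the tests. In BAT, SGK1 was highest with 692 ± 326 (SD, n = 14), followed by TSC22D3 with 564 ± 132, KLF9 with 403 ± 94.2, ZBTB16 with 328 ± 282, FKBP5 with 320 ± 251 and NR3C1 with 258 ± 50.2. HSD11B1 with 68.4 ± 44.0, NR3C2 with 45.5 ± 12.8 and HSD11B2 with 16.6 ± 8.78 were the lowest. SGK1 was above TSC22D3 in only 7 of 14 lambs, and this followed the treatment, since TSC22D3 was the higher in all 6 AT lambs and otherwise in Cold 2 alone. Among the others, ZBTB16 above FKBP5 and FKBP5 above NR3C1 in 8 each, HSD11B1 above NR3C2 in 9 and KLF9 above ZBTB16 in 10, so these neighbours in the order did not differ beyond their spread. TSC22D3 was above KLF9 in 13 lambs, and NR3C1 was above HSD11B1 and NR3C2 above HSD11B2 in all 14.

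In thyroid tissue, TSC22D3 led with 998 ± 206 normalised counts per kilobase (SD, n = 14), above FKBP5 in all 14 lambs. FKBP5 had 430 ± 148 and KLF9 had 346 ± 56.8, with FKBP5 the higher in 10 lambs. NR3C1 with 205 ± 33.0 was below KLF9 in all 14 lambs. It did not separate from SGK1 with 199 ± 106 or ZBTB16 with 178 ± 126, being above SGK1 in 9 lambs, which in turn was above ZBTB16 in 8. NR3C2 with 103 ± 18.1 was below ZBTB16 in 9 lambs and above HSD11B1 in all 14. The enzyme HSD11B1 with 6.75 ± 2.93 and HSD11B2 with 1.14 ± 1.03 were lowest, in this order in every lamb. The receptor for cortisol was therefore above both enzymes in every lamb and tissue, and HSD11B2 was last in both tissues.

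**Figure D1:**
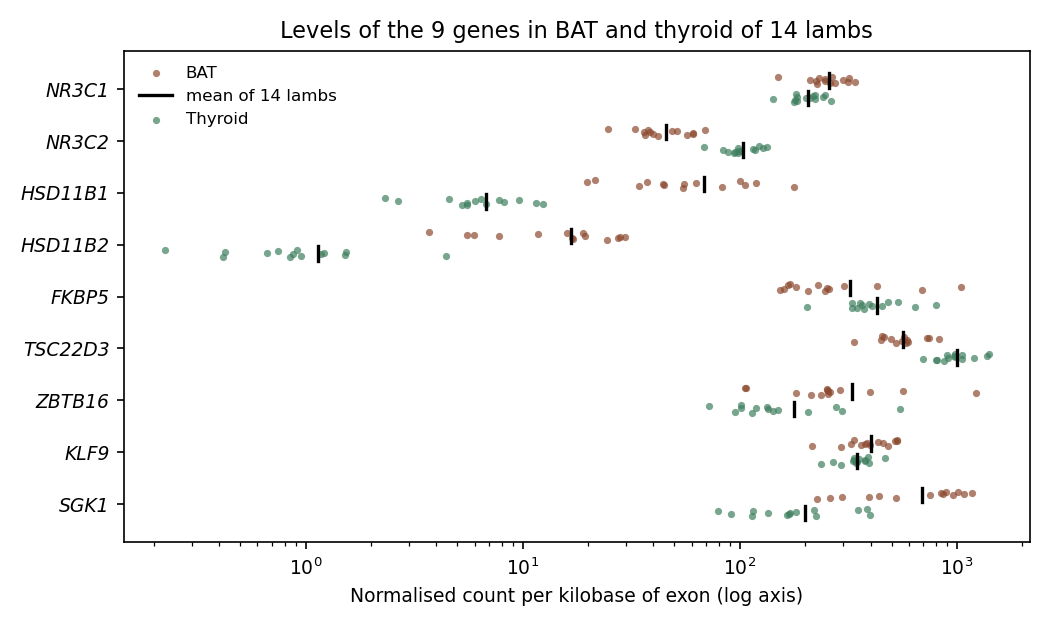
Normalised counts per kilobase of exon (log axis) of the 9 genes in BAT (brown) and thyroid (green), with 1 point per lamb for 14 lambs and a bar at their mean. HSD11B1, HSD11B2 and ZBTB16 were higher in BAT than in thyroid in all 14 lambs, and NR3C2 and TSC22D3 were lower in all 14.

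The enzymes and SGK1 were more abundant in BAT, and the mineralocorticoid receptor and TSC22D3 in thyroid tissue. Of the 9 genes, 6 differed between the tissues in edgeR's quasi-likelihood test, where 71.0% of 17021 genes tested were called, so the count is near that of all genes. HSD11B2 was 14.9-fold higher in BAT (log2FC 3.90 ± 0.42, SE, adjusted p = 6.24e-09) and HSD11B1 was 10.7-fold higher (3.42 ± 0.40, adjusted p = 1.85e-08), each in 14 of 14 lambs. HSD11B2, counted among the 6, entered this test through its BAT libraries, with 10 to 116 reads against 1 to 19 in the thyroid. Its call was thus favoured by the read filter and is no independent support for a tissue difference. SGK1 was 3.11-fold higher in BAT (1.64 ± 0.22, adjusted p = 2.04e-07), in 13 of 14 lambs. NR3C2 was 2.48-fold lower in BAT (−1.31 ± 0.13, adjusted p = 2.22e-09) and TSC22D3 1.93-fold lower (−0.95 ± 0.12, adjusted p = 5.39e-08), each in 14 of 14 lambs. NR3C1 was 1.20-fold higher in BAT (0.26 ± 0.12, adjusted p = 0.0451), but the median gene was also 0.24 higher on this scale, and with median-of-ratios scaling NR3C1 was at −0.04. FKBP5 (−0.65 ± 0.30, adjusted p = 0.0558) and ZBTB16 (0.72 ± 0.34, adjusted p = 0.0637) missed the threshold, and ZBTB16 turned to −0.11 with all 3 controls and TMM scaling. On the scale used here, ZBTB16 was higher in BAT in 14 of 14 lambs, NR3C1 in 13 and FKBP5 in 3. With the lamb as a replicate block, FKBP5 (−0.78 ± 0.15, adjusted p = 0.000145) and ZBTB16 (0.70 ± 0.17, adjusted p = 0.00176) were called and NR3C1 was not (adjusted p = 0.0746). KLF9 was not called (adjusted p = 0.205) and was higher in BAT in 10 of 14 lambs.

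NR3C1 overlapped between the groups in both tissues. Levels within a tissue are given from here on as normalised counts on the scale of that tissue. NR3C1 in BAT was 1203 ± 213 in cold (SD, n = 6; lowest 949.7, median 1125, highest 1475) and 1277 ± 201 in AT lambs (n = 6; 1032, 1240.1 and 1541). The kept controls had 709 (Control 1) and 1249.8 (Control 3), and Control 2 had 581. In thyroid tissue NR3C1 was 2657 ± 336 in cold (2146, 2594 and 3078) and 2342 ± 486 in AT lambs (1713, 2192 and 3066), with 2670.1 in Control 1, 2151 in Control 3 and 1344 in Control 2. None of the 6 comparisons of NR3C1 between groups passed the test, with adjusted p between 0.348 and 0.928. When Control 2 replaced Control 3, NR3C1 rose in BAT in both treatments against control.

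NR3C2 was lowest in the controls in BAT. It was 173 ± 44.1 normalised counts in cold (SD, n = 6; lowest 128, median 165, highest 249.9) and 179 ± 43.2 in AT lambs (n = 6; 129.8, 181 and 224), against 90.9 in Control 1, 121 in Control 3 and 17.2 in Control 2. Every treated lamb was above every control. The difference missed the threshold with 2 controls in cold (log2FC 0.70 ± 0.30, adjusted p = 0.221) and in AT lambs (0.75 ± 0.30, adjusted p = 0.126). With all 3 controls it was 1.22 in cold (adjusted p = 0.0762) and 1.27 in AT lambs, where it passed (adjusted p = 0.0484). The adjusted p over the alternatives was 0.0360 to 0.657 in cold lambs and 0.0289 to 0.474 in AT lambs. The value thus depended on Control 2, whose level was the lowest of all lambs in both tissues. In thyroid tissue, NR3C2 was 1071 ± 170 in cold (826, 1107 and 1298) and 903 ± 59.5 in AT lambs (801, 914 and 982), with 644 in Control 1, 1136 in Control 3 and 201 in Control 2. There the groups overlapped and no comparison passed (adjusted p between 0.377 and 0.948). NR3C2 rose in thyroid of cold lambs with all 3 controls and TMM scaling (0.96, adjusted p = 0.0472), and in both treatments when Control 2 replaced Control 3.

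The cortisol-regenerating enzyme HSD11B1 showed no called difference between groups in either tissue (adjusted p between 0.289 and 0.957). In BAT, it was 90.1 ± 56.5 normalised counts in cold (SD, n = 6; lowest 30.6, median 79.2, highest 195) and 129 ± 81.4 in AT lambs (n = 6; 52.4, 108 and 270.3), with 159 in Control 1, 34.3 in Control 3 and 68.8 in Control 2. From its lowest to its highest of the 14 lambs used in the tests it spread 8.83-fold in BAT, against 2.17-fold for NR3C1 and 2.75-fold for NR3C2, which with Control 2 reached from 17.2 to 249.9. In thyroid tissue it was read 7 to 54 times per library and had 26.4 ± 10.1 in cold, 31.7 ± 13 in AT lambs and 26.1, 9.26 and 38.0 in Controls 1, 3 and 2. Counts this low limit what could be detected.

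The cortisol-inactivating enzyme HSD11B2 was lower in cold than in AT lambs in BAT, though not past the threshold (log2FC −1.05 ± 0.38, adjusted p = 0.305, range over the alternatives 0.158 to 0.573). Its level was 25.6 ± 12.6 normalised counts in cold (SD, n = 6; lowest 12.4, median 23.5, highest 43.5) and 54.3 ± 12.9 in AT lambs (n = 6; 37.5, 58.0 and 69.1). Controls had 44.1 (Control 1), 8.58 (Control 3) and 4.30 (Control 2). The cold and AT groups overlapped through Cold 2, which was above AT 2 and AT 3. AT against control did not pass (adjusted p = 0.247), except when Control 2 replaced Control 1. In thyroid tissue the gene was read 1 to 19 times per library, too few for the test, with the highest level in AT 3, the lamb with the highest skeletal muscle markers. Whether these markers had a part in it was not tested.

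FKBP5 differed more between lambs than between groups. In BAT it was 926 ± 742 normalised counts in cold (SD, n = 6; lowest 389, median 682, highest 2377) and 659 ± 459 in AT lambs (n = 6; 349.7, 531 and 1575). Controls had 544 (Control 1), 408 (Control 3) and 6667 (Control 2). In thyroid tissue it was 2778 ± 1149 in cold (1992, 2299.8 and 5066) and 2341 ± 889 in AT lambs (1248, 2194 and 3921), with 3261 in Control 1, 2881 in Control 3 and 11448 in Control 2. The groups overlapped in both tissues. With 2 controls, no comparison passed the test (adjusted p between 0.461 and 0.936). Control 2 alone held the highest level of all 15 lambs in both tissues, and with all 3 controls FKBP5 fell in thyroid AT lambs (log2FC −1.32 ± 0.41, adjusted p = 0.0410), though not with TMM scaling added (adjusted p = 0.0784). There it was −1.08 ± 0.41 in thyroid cold lambs (adjusted p = 0.0842), −1.90 ± 0.75 in BAT of AT lambs (adjusted p = 0.102, or 0.0488 with TMM scaling added) and −1.41 ± 0.75 in BAT of cold lambs (adjusted p = 0.274). In BAT, the sign against control was positive with 2 controls and negative with 3 controls in both treatments.

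ZBTB16 was lowest in the kept controls in BAT, and highest within each group in the lamb that was highest for FKBP5. In BAT it was 1678 ± 605 normalised counts in cold (SD, n = 6; lowest 1208, median 1415, highest 2732) and 1922 ± 1956 in AT lambs (n = 6; 915, 1216 and 5906). Control 1 had 529 and Control 3 had 534, below every treated lamb, whereas Control 2 had 1596 and lay within their range. ZBTB16 missed the threshold in cold (log2FC 1.66 ± 0.67, adjusted p = 0.205, range over the alternatives 0.0204 to 0.568) and in AT lambs (1.85 ± 0.68, adjusted p = 0.102, range 0.0149 to 0.405). It was called in both when AT 4 was left out, in AT lambs by DESeq2 and in cold lambs when only these groups were fitted. When Cold 2 and AT 4 were left out, it was 1.48 in cold (adjusted p = 0.0204) and 1.09 in AT lambs (adjusted p = 0.0165). With all 3 controls it was 0.97 (adjusted p = 0.351) and 1.19 (adjusted p = 0.198). In thyroid tissue it was 2863 ± 2337 in cold (1324, 1746 and 7343) and 2140 ± 934 in AT lambs (1222, 1898 and 3794), with 921 in Control 1, 1278 in Control 3 and 13941 in Control 2, and no comparison passed (adjusted p between 0.155 and 0.934). There the sign against control was positive with 2 controls and negative with 3 controls in both treatments.

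**Figure D2:**
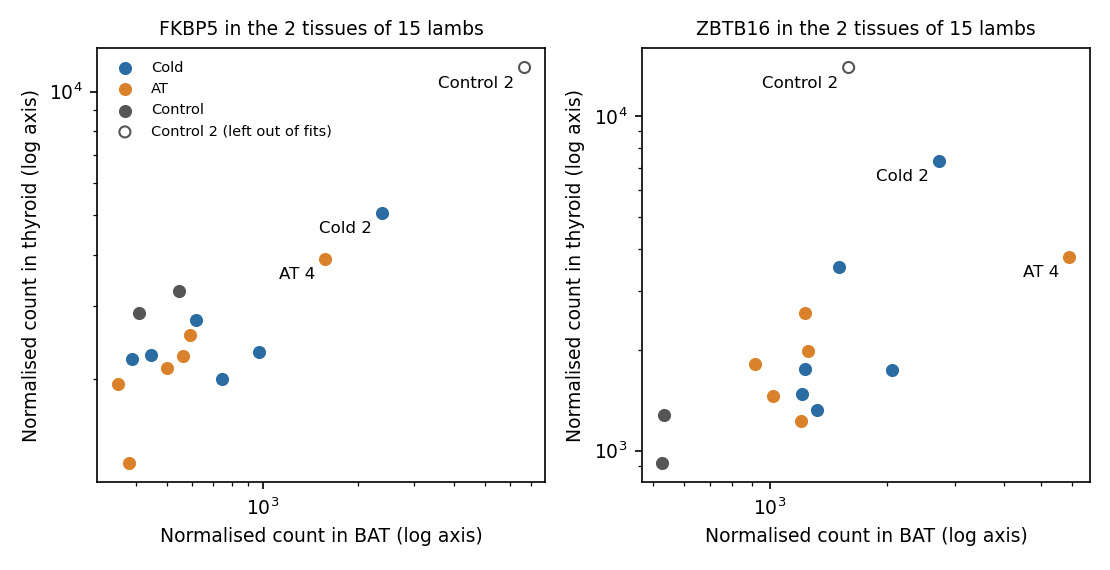
Normalised counts of FKBP5 (left) and ZBTB16 (right) in BAT (horizontal, log axis) and thyroid (vertical, log axis), with 1 point per lamb for 15 lambs coloured by group and Control 2 as an open circle. Cold 2 (2377 and 5066 for FKBP5), AT 4 (1575 and 3921) and Control 2 (6667 and 11448) lie at the upper right for both genes, each the highest of its group in both tissues.

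Cold 2, AT 4 and Control 2 were each the highest lamb of their group for FKBP5 and for ZBTB16 in both tissues. No other gene of the 9 had these lambs at the top of their groups in both tissues. Among 31 other genes known to be induced by glucocorticoids and tested in both tissues, Control 2 was the highest control in both tissues for 11 (35.5%), against 8.07% of all 14403 genes. These 11 were ALPL, CDKN1C, CEBPD, CRISPLD2, ERRFI1, FBXO32, FOXO1, FOXO3, NFKBIA, PIK3R1 and SESN1. AT 4 was the highest AT lamb in both tissues for 3 of the 31 (CEBPD, NFKBIA and PER1), 9.68% against 6.96% of all genes, and Cold 2 the highest cold lamb for 1 (FOXO3), 3.23% against 2.30%. For AT 4 and Cold 2 the other induced genes were therefore near the share of all genes. In BAT, AT 4 was the highest AT lamb for 7077 of the 14403 genes, so that a high value in this library was common.

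TSC22D3 and KLF9 varied least among the targets, with a coefficient of variation over the 14 lambs of 23.2% and 24.7% in BAT and of 19.9% and 16.5% in thyroid tissue. In BAT it was 1372 ± 237 normalised counts in cold (SD, n = 6; lowest 1074, median 1378, highest 1659) and 1037 ± 217 in AT lambs (n = 6; 672, 1111 and 1232), with 968 in Control 1, 946 in Control 3 and 2022 in Control 2. Cold lambs were all above the kept controls but not above Control 2. Against control the cold value was 0.52 ± 0.24 (adjusted p = 0.272), which turned to −0.01 with all 3 controls and TMM scaling, and cold against AT was 0.41 ± 0.17 (adjusted p = 0.352). In thyroid tissue TSC22D3 was 5813 ± 840 in cold (4791, 5625 and 7128) and 4578 ± 687 in AT lambs (3718, 4447 and 5678), with 5246 in Control 1, 7368 in Control 3 and 4748 in Control 2. It did not pass in AT against control (−0.46 ± 0.19, adjusted p = 0.0859), except without Control 1 (−0.69, adjusted p = 0.0364), or in cold against AT (0.34 ± 0.13, adjusted p = 0.911). Cold lambs thus averaged above AT lambs in both tissues, with overlap in both and no call in either.

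KLF9 was close between groups. In BAT it was 1131 ± 207 normalised counts in cold (SD, n = 6; lowest 865, median 1137, highest 1399) and 889.5 ± 244 in AT lambs (n = 6; 529.9, 929.6 and 1249), with 866 in Control 1, 1367 in Control 3 and 1299 in Control 2. In thyroid tissue it was 2331 ± 144 in cold (2127, 2302 and 2519) and 2057 ± 385 in AT lambs (1551, 2045 and 2594), with 3073 in Control 1, 2516 in Control 3 and 4224 in Control 2. The largest difference was that of AT against control in the thyroid (log2FC −0.44 ± 0.17, adjusted p = 0.0753). It passed with all 3 controls (−0.67, adjusted p = 0.0201) and without AT 4 (−0.52, adjusted p = 0.0405), and it shrank to −0.14 with TMM scaling (adjusted p = 0.655).

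SGK1 separated the groups in BAT. Cold lambs had 1972.5 ± 349 normalised counts (SD, n = 6; lowest 1501, median 1948, highest 2388) and AT lambs had 728 ± 245 (n = 6; 456, 702 and 1109.7). Control 1 had 1855 and Control 3 had 2113, within the range of the cold lambs, and Control 2 had 669, within that of the AT lambs. Each of the 6 cold lambs was above each of the 6 AT lambs. SGK1 was upregulated 2.71-fold in cold against AT (log2FC 1.44 ± 0.21, adjusted p = 0.0198), as the only one of the 9 genes called, where 0.309% of 14905 genes were called. In AT lambs it was downregulated 2.72-fold against control (−1.44 ± 0.27, adjusted p = 0.00676), again as the only one of 9, beside 9.3% of all genes. Of the genes called there, 469 were higher and 917 lower, against 871 and 881 with TMM scaling. In cold lambs against control none of the 9 genes was called, and 1.48% of all genes were, 90 higher and 131 lower, or 280 and 200 with TMM scaling. By unadjusted p under 0.05, 2704 of the 14905 genes passed in that comparison, among them ZBTB16, NR3C2 and TSC22D3, and DESeq2 called none of the 9 genes there. SGK1 levels in cold lambs and kept controls did not separate (adjusted p = 0.990).

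The difference of SGK1 between cold and AT lambs stayed between 1.34 and 1.59 over the alternatives, while its adjusted p ranged from 1.15e-07 to 0.139. It was 1.43 with all 3 controls, where no gene of 14940 was called by edgeR (SGK1 adjusted p = 0.0997; 1181 genes had an unadjusted p under 0.05), and 1.46 with all 3 controls and TMM scaling (adjusted p = 0.0407). The call was also lost without Cold 4 (adjusted p = 0.0549), AT 3 (0.0653) or AT 5 (0.0514), and without both Cold 2 and AT 4 (0.0528), and when Control 2 replaced Control 1 (0.139) or Control 3 (0.0731). DESeq2 gave an adjusted p of 1.15e-07. The difference of AT against control was −1.01 with all 3 controls (adjusted p = 0.0463), and its call was lost without Control 1 (adjusted p = 0.0526) or Control 3 (0.108). With Control 2 in place of Control 1 it was −0.85 (adjusted p = 0.126) and in place of Control 3 −0.70 (adjusted p = 0.185). Of the reference genes, ACTB was at −0.67 ± 0.21 in AT against control (adjusted p = 0.0611), while RPL19 was at 0.31 and HUWE1 at 0.07. With TMM scaling, SGK1 was at −1.34 in this comparison (adjusted p = 0.00845) and at 1.45 in cold against AT (adjusted p = 0.00950).

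Endothelial cell markers moved with SGK1 in BAT. The summed level of the 8 markers, of which none was at 0, was 39826 to 58159 normalised counts in cold (median 48745) and 31692 to 43176 in AT lambs (median 38772). Kept controls had 48469.5 and 53066, and Control 2 had 14761. The part of these cells in the SGK1 difference was not tested. Of the markers of neighbouring organs, those of the kidney tubule summed to at most 67.5 in BAT and those of the adrenal cortex to between 196 and 1192 in the 14 lambs and to 3225 in Control 2. CYP11B1 and MC2R were at 0 in all AT lambs and controls and CYP11A1 in all AT lambs, while each of the 8 was read in a cold lamb. Only 4 of the 8 reached 10 reads in any BAT library. Their summed level was 319 to 537 in cold lambs, within the range of 196 to 1192 in AT lambs. The part of these cells was not tested.

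**Figure D3:**
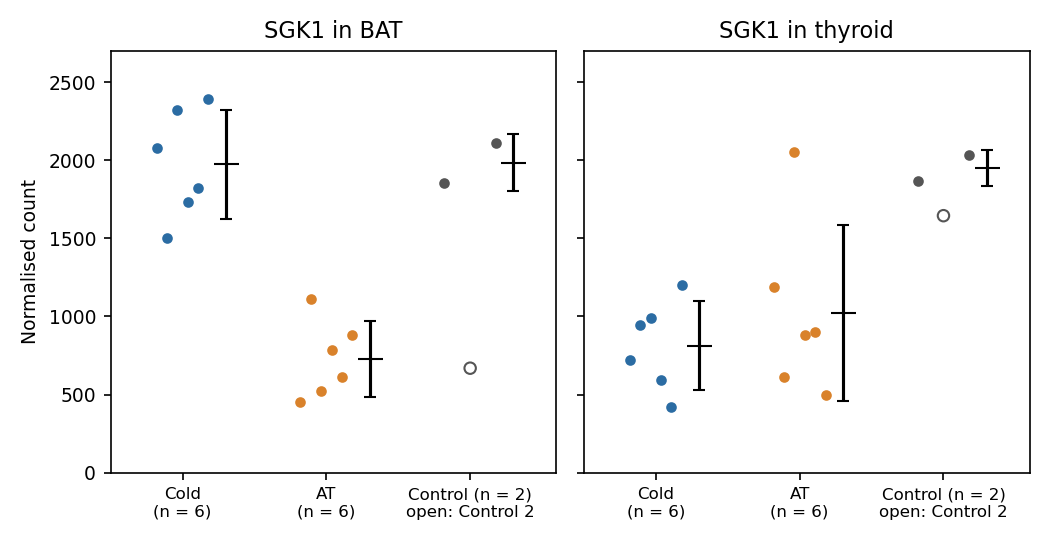
Normalised counts of SGK1 in BAT (left) and thyroid (right), with 1 point per lamb and, beside each group, the mean and SD (cold and AT n = 6, control n = 2); the open circle is Control 2. In BAT the 6 cold lambs (1501 to 2388) lie above the 6 AT lambs (456 to 1109.7), whereas in the thyroid both groups overlap and the controls lie at 1645 to 2032.

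In thyroid tissue, SGK1 was highest in the controls, with 1867 in Control 1, 2032 in Control 3 and 1645 in Control 2. Cold lambs had 813 ± 286 normalised counts (SD, n = 6; lowest 424, median 833, highest 1204), all below every control, and AT lambs had 1022 ± 561 (n = 6; 497, 890.1 and 2053). Within AT, 1 lamb (AT 3, 2053) was above all controls, and this library had the highest skeletal muscle markers. Cold against control was at the threshold (log2FC −1.26 ± 0.43, adjusted p = 0.0533, range over the alternatives 0.0111 to 0.376). It passed with all 3 controls (−1.19, adjusted p = 0.0362), by DESeq2 (adjusted p = 0.0282), when only these groups were fitted, and without AT 3, AT 6 or Cold 6, but not with TMM scaling (−0.98, adjusted p = 0.153). AT against control did not pass (−0.93 ± 0.43, adjusted p = 0.136), except without AT 3 (−1.26, adjusted p = 0.0120). Cold and AT lambs did not separate (−0.33 ± 0.32, adjusted p = 0.932), and without AT 3 the difference was −0.01.

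No gene of the 8 tested passed in thyroid tissue in any comparison, while 19.3% of 16122 genes were called in cold against control, 21% in AT against control and 0.0% in cold against AT. By unadjusted p under 0.05, SGK1 passed in cold against control, SGK1, KLF9 and TSC22D3 in AT against control and TSC22D3 in cold against AT, where 870 genes of all did so and DESeq2 called 4. DESeq2 called SGK1 in cold against control and none of the 8 genes in the other comparisons. The scale matters here, since the median of all genes against control was −0.28 in both treatments and moved to 0.02 in cold and 0.05 in AT lambs with TMM scaling. Of the 3110 genes called in cold, 378 were higher, against 628 of 1430 with TMM scaling, and in AT lambs 360 of 3382, against 650 of 1408. Markers moved with these comparisons as well. Thyroid follicular cell markers summed to between 2874820 and 5877740 in the kept controls and between 1325900 and 2708870 in the treated lambs, and endothelial markers to 21576 and 31856 against 10274 to 23294. Control 2 was within the treated range for both, at 1927770 and 10696. The 7 macrophage markers, none at 0, summed to 1393 to 1708 in the 3 controls, below every treated lamb (1778 to 4145). Their part in the SGK1 values was not tested.

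**Figure D4:**
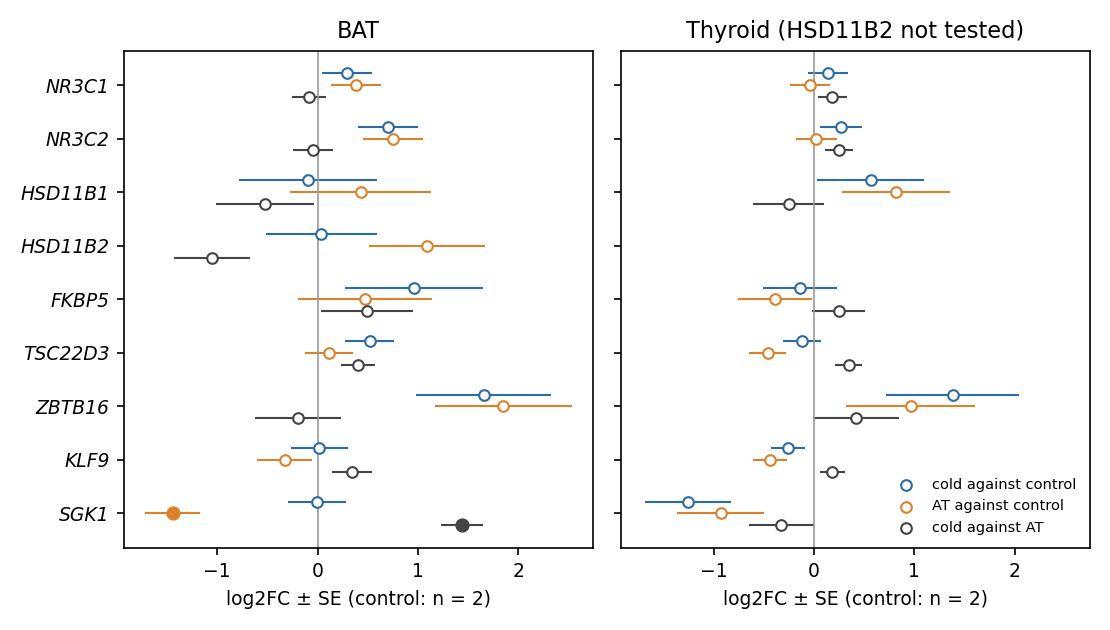
log2FC with SE of each gene in BAT (left) and thyroid (right) for cold against control (blue), AT against control (orange) and cold against AT (grey), from 6 cold, 6 AT and 2 control lambs; filled points passed an adjusted p of 0.05. The 2 filled points are SGK1 in BAT, at −1.44 for AT against control and at 1.44 for cold against AT.

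Whether a response differed between the tissues was tested as an interaction. None of the 9 genes passed, beside 0.188% of 17021 genes for cold against control, 1.66% for AT against control and 0.0% for cold against AT. For SGK1, the response to cold against AT was higher in BAT than in the thyroid by 1.77 ± 0.39 on the log2 scale (unadjusted p = 0.000123, adjusted p = 0.206), where edgeR called no gene, 1339 genes had an unadjusted p under 0.05 and DESeq2 called 30. DESeq2 called SGK1 (adjusted p = 0.0147). With the lamb as a replicate block it was 1.71 (adjusted p = 0.298), and without AT 3 it was 1.36. Over the alternatives, the adjusted p reached 0.509 with all 3 controls.

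Whether a lamb with a high level in one tissue also had a high level in the other was asked in the 12 treated lambs, after group means of log2(normalised count + 1) were removed. Of 9 relations, 2 passed after adjustment over the 9. For FKBP5, Pearson's r was 0.84 (permutation p = 0.00224, adjusted p = 0.0101) and Spearman's rho 0.72 (permutation p = 0.0110, adjusted p = 0.0494). Without Cold 2 and AT 4, r was 0.35 (permutation p = 0.334) and rho 0.52 (permutation p = 0.132), so that neither held without these lambs. Within cold lambs r was 0.81 (exact permutation p = 0.0833) and rho 0.54 (exact permutation p = 0.297), and within AT lambs r was 0.88 (exact permutation p = 0.0250) and rho 0.94 (exact permutation p = 0.0167).

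For NR3C2, r was 0.79 (permutation p = 0.00124, adjusted p = 0.0101) and rho 0.75 (permutation p = 0.00725, adjusted p = 0.0494). Without Cold 6 and AT 5, the lambs farthest from the median, r was 0.73 (permutation p = 0.0166, adjusted p = 0.149). It was 0.88 within cold (exact permutation p = 0.0167) and 0.79 within AT lambs (exact permutation p = 0.0194), and 0.66 with TMM scaling (permutation p = 0.0195, adjusted p = 0.0586). Within cold lambs rho was 0.83 (exact permutation p = 0.0583), and within AT lambs 0.77 (exact permutation p = 0.103). The relation for NR3C2 was thus positive in each treatment. By r, it passed the adjustment neither within cold (adjusted p = 0.150) nor within AT lambs (adjusted p = 0.1125). For ZBTB16, r was 0.65 (permutation p = 0.0297, adjusted p = 0.0892), rho 0.62 (permutation p = 0.0381, adjusted p = 0.114) and, without Cold 2 and AT 4, r was 0.13. The other 6 genes had r between −0.44 (SGK1) and 0.20 (HSD11B1).

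FKBP5 is often read as a measure of receptor activity, and its relation to the other 8 genes was computed within each tissue, 16 relations in all. None passed after adjustment in the 12 lambs. The largest by r in BAT were ZBTB16 with r = 0.77 (permutation p = 0.00938, adjusted p = 0.150; rho 0.41, permutation p = 0.186) and TSC22D3 with r = 0.63 (permutation p = 0.0304, adjusted p = 0.187; rho 0.68, permutation p = 0.0184). In thyroid tissue they were ZBTB16 with r = 0.62 (permutation p = 0.0351, adjusted p = 0.187; rho 0.29, permutation p = 0.368) and TSC22D3 with r = 0.54 (permutation p = 0.0716, adjusted p = 0.256; rho 0.70, permutation p = 0.0135). Without Cold 2 and AT 4, ZBTB16 was at 0.09 in BAT and −0.24 in the thyroid, while TSC22D3 was at 0.56 (permutation p = 0.0889) and 0.69 (permutation p = 0.0246). The adjusted p of TSC22D3 was then 0.474 in BAT and 0.197 in the thyroid, so neither passed. NR3C1 in BAT had r = −0.36 with FKBP5 (permutation p = 0.253; rho −0.66, permutation p = 0.0245, adjusted p = 0.131). Without Cold 2 and AT 4 this was the largest of the 16 by r (−0.78, permutation p = 0.00890, adjusted p = 0.142; rho −0.84, permutation p = 0.00394, adjusted p = 0.0630), and it did not pass either.

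Within single treatments, 2 of these relations passed after adjustment by r, and another by rho alone. In cold lambs, SGK1 in BAT was lower where FKBP5 was higher (r = −0.96, exact permutation p = 0.00139, adjusted p = 0.0222; rho −1, exact permutation p = 0.00278, adjusted p = 0.0444), whereas r was 0.29 in AT lambs (exact permutation p = 0.618) and −0.19 over both (permutation p = 0.555). In AT lambs, TSC22D3 in the thyroid was higher where FKBP5 was higher (r = 0.98, exact permutation p = 0.00139, adjusted p = 0.0222; rho 1, exact permutation p = 0.00278, adjusted p = 0.0222), whereas r was 0.03 in cold lambs (exact permutation p = 0.958). In AT lambs, HSD11B1 in BAT was lower where FKBP5 was higher by rho (−1, exact permutation p = 0.00278, adjusted p = 0.0222) but not by r after adjustment (−0.85, exact permutation p = 0.0222, adjusted p = 0.178), and r was −0.01 in cold lambs. The difference between the treatments was not tested, and both values of a pair share a library and its size factor.

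Of other genes of the pathway, none was called by edgeR in cold against AT in either tissue. With TMM scaling 1 of 32 glucocorticoid-induced genes rose in BAT, beside 0.637% of all genes. It was RHOB, a small GTPase (0.68 ± 0.12, adjusted p = 0.0189), named after its value was seen. The lists held 22 receptor chaperones and coregulators, 40 further glucocorticoid-induced genes and 12 mineralocorticoid-responsive sodium transport genes. In BAT, cold against control, 2 of 22 chaperones and coregulators fell and none rose (median log2FC −0.21, against −0.10 over all genes) and 1 of 32 induced genes rose and 1 fell (median 0.00), where 1.48% of all genes were called. With all 3 controls and TMM scaling, 2 of 22 rose and 7 fell, and 1 of 32 rose and 5 fell, beside 11.04% of all genes. Those that fell with the 2 kept controls included FKBP4, the immunophilin that favours nuclear transport of the receptor (−0.92 ± 0.20, adjusted p = 0.0365). They also included ZFP36, which degrades inflammatory mRNA (−1.96 ± 0.35, adjusted p = 0.0155). FBXO32, a muscle ubiquitin ligase induced by glucocorticoid, rose (1.09 ± 0.25, adjusted p = 0.0416), but with all 3 controls it was at 0.17 (adjusted p = 0.832).

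In BAT, AT against control, 1 of 22 chaperones and coregulators rose and 3 fell (median −0.18, against −0.03 over all genes), 4 of 32 induced genes rose and 3 fell (median 0.07), and 1 of 7 sodium transport genes rose and 3 fell (median −0.54), where 9.3% of all genes were called. With all 3 controls, 1 of the 32 rose and 5 fell and the median turned to −0.42, beside 12.1% of all genes called (median 0.11). With TMM scaling added, 1 rose and 9 fell (median −0.63), beside 19.2% of all genes (median −0.02). With the 2 kept controls, PCK1, the gluconeogenic and glyceroneogenic enzyme, rose (3.49 ± 1.03, adjusted p = 0.0482), as did PPP5C, a phosphatase of the receptor complex (2.55 ± 0.69, adjusted p = 0.0315). SESN1 rose by 1.45 ± 0.33 (adjusted p = 0.0151) and FBXO32 by 1.36 ± 0.25 (adjusted p = 0.00676), though with all 3 controls they were at 0.72 (adjusted p = 0.210) and 0.43 (adjusted p = 0.459). ZFP36 fell (−2.09 ± 0.35, adjusted p = 0.00399), as did ALPL, an alkaline phosphatase (−1.18 ± 0.31, adjusted p = 0.0250), and NEDD4L, the ubiquitin ligase of the sodium channel that SGK1 inhibits (−1.26 ± 0.23, adjusted p = 0.00597). NEDD4L was at −0.74 with all 3 controls (adjusted p = 0.146). Without Control 1, none of the 22 and 32 genes was called in either comparison of BAT with control, and without Control 3 none of the 22 and 1 of the 32. In these fits, 0.523% to 0.839% of all genes were called in AT against control, and 0.129% or none in cold against control.

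In thyroid tissue, most called genes of the lists fell, as did most called genes of all, which were 19.3% of genes in cold and 21% in AT lambs. In cold against control, 11 of 22 chaperones and coregulators fell (median −0.65, against −0.28 over all genes), 10 of 31 induced genes fell (median −0.37), and 1 of 10 sodium transport genes rose and 5 fell (median −0.78). In AT against control, 10 of 22 fell (median −0.57), 1 of 31 rose and 10 fell (median −0.58), and 1 of 10 rose and 5 fell (median −0.86). With TMM scaling these counts dropped to 3, 2 and 2 that fell in cold and to 2, 0 and 2 in AT lambs. Beside them, 8.87% of all genes were called in cold and 8.73% in AT lambs. Without Control 3, the list medians were −0.40, −0.38 and −0.24 in cold, against −0.10 over all genes. In AT lambs they were then −0.36, −0.43 and −0.39, against −0.10 over all genes. Without Control 1, the list medians were −0.76, −0.27 and −1.12 in cold, against −0.41 over all genes. In AT lambs they were −0.76, −0.27 and −1.15, against −0.40 over all genes. The median of the induced genes was thus below that of all genes without Control 3 and above it without Control 1. With both kept controls, WNK4, a kinase of sodium chloride transport, rose in cold (1.40 ± 0.40, adjusted p = 0.0275) and AT lambs (1.52 ± 0.41, adjusted p = 0.0181), but not with all 3 controls (adjusted p = 0.171 and 0.118). The lipid regulator LPIN1 fell in both (−2.50 ± 0.57, adjusted p = 0.0107, and −1.95 ± 0.57, adjusted p = 0.0286), as did KCNJ1, a potassium channel (−2.03 ± 0.42, adjusted p = 0.00659, and −2.26 ± 0.42, adjusted p = 0.00327).

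Further in the thyroid, CDKN1A, a cell cycle inhibitor (−3.75 ± 1.20, adjusted p = 0.0477), and PDK4, which restrains glucose oxidation (−2.40 ± 0.75, adjusted p = 0.0428), fell in cold lambs. In AT lambs HSPA1A, an inducible heat shock protein (−1.76 ± 0.46, adjusted p = 0.0174), and GLUL, glutamine synthetase (−1.59 ± 0.39, adjusted p = 0.0129), fell and CDKN1C, another cell cycle inhibitor, rose (1.12 ± 0.35, adjusted p = 0.0373). With all 3 controls, KCNJ1 (adjusted p = 0.167 in cold and 0.113 in AT), HSPA1A (adjusted p = 0.195) and CDKN1C (adjusted p = 0.123) did not pass. With TMM scaling CDKN1A, PDK4 and, in AT lambs, LPIN1, HSPA1A and GLUL did not (adjusted p between 0.0579 and 0.0872). LPIN1 in cold lambs passed with all 3 controls (adjusted p = 0.00463) and with TMM scaling (adjusted p = 0.0279). Skeletal muscle markers summed to 259946 in the thyroid of Control 1, a kept control. Whether they had a part in these values was not tested.

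The gene whose pattern over the 14 lambs was most like that of each member was found by Pearson's r of log2(normalised count + 1), which is across libraries that share size factors and is given as a description. In BAT these were HACE1 for NR3C1 (r = 0.93), NREP for NR3C2 (0.89), ADAMTS16 for HSD11B1 (0.85), MYO7A for HSD11B2 (0.87), KIF14 for FKBP5 (0.88), NMUR2 for TSC22D3 (0.82), ANKLE1 for ZBTB16 (0.88), USP46 for KLF9 (0.90) and SLC6A6, the taurine transporter, for SGK1 (0.97). In thyroid tissue they were F2RL1 for NR3C1 (0.90), GALM for NR3C2 (0.92), FAM89A for HSD11B1 (0.89), TMEM64 for FKBP5 (0.83), GNPTAB for TSC22D3 (0.90), CES4A for ZBTB16 (0.74), GINM1 for KLF9 (0.89) and STAM for SGK1 (0.92). No gene was the closest to a member in both tissues.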

How the data were processed

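RNA of BAT and thyroid tissue was extracted with TRIzol, captured with oligo(dT) beads, copied with random hexamers and sequenced as 150-base pairs on the BGISEQ-500 platform. The authors trimmed reads with Trimmomatic 0.39, aligned them with STAR 2.7.7a to Oar_rambouillet_v1.0 and deposited whole-number counts per RefSeq gene from featureCounts (Subread 2.0.0), multimapping reads included. Whether counting used the strand is not given in the sources used here, so reads of an overlapping antisense gene could not be told apart from those of a member. FastQC 0.11.9 was used for quality control.

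Size factors from ACTB, RPL19 and HUWE1 (0.465 to 1.84 in BAT, 0.632 to 1.21 in thyroid) entered edgeR 4.0.16 (R 4.3.3) as offsets. A gene needed 10 or more reads in 10 or more libraries to enter the robust quasi-likelihood F tests, 2-sided, with Benjamini-Hochberg adjustment over all genes tested. A gene was called at an adjusted p under 0.05. SE is the log2FC divided by the square root of F. Each tissue was fitted on 14 libraries, and 28 libraries were fitted jointly for BAT against thyroid and for interactions. The scripts were tested on simulated data.

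Libraries of 1 lamb were paired by animal. Their deviations from group means correlated across 14403 genes with r from −0.003 (AT 3) to 0.371 (Cold 1), and at 0.107 for both kept controls. The closest libraries of a tissue differed by a chi-square of at least 31.28 per degree of freedom, so none was a duplicate. Replicates are separate lambs.

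The members and gene lists were chosen with earlier results of these data known. Named were all members, the reference genes, up to 4 called pathway genes with the largest and up to 4 with the smallest log2FC per comparison, and the gene most alike each member. Some of the pathway genes so chosen are not reported here. Alternatives were DESeq2 1.42.0, TMM and median-of-ratios scaling, no low-count filter, only 2 groups, all 3 controls, the RNA integrity number as a covariate, the lamb as a block, and leaving out each lamb. Chosen after seeing the data were all 3 controls with TMM scaling, Control 2 in place of either kept control, and leaving out Cold 2 and AT 4. Permutation tests were 2-sided, exact for 6 lambs and with 100000 resamples for more (scipy 1.17.1).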

Additional observations from a re-analysis of the deposited data

Results flagged for a closer look

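A lamb far from the rest of its group was looked for in 36 groups of 6 lambs. Chance flags about 1 in 20 if groups are independent and values normally distributed. The same lambs recur over these groups, so the number found cannot be set against that rate. Such a lamb was found in 6 groups. In BAT, FKBP5 was at 2377 normalised counts in Cold 2 and 1575 in AT 4, and ZBTB16 was at 5906 in AT 4. In thyroid tissue, FKBP5 was at 5066 and ZBTB16 at 7343 in Cold 2. HSD11B2 was at 25.6 in thyroid of AT 3, the library with the highest skeletal muscle markers, on 19 reads. The gap to the next lamb was a share of between 0.632 and 0.931 of the range of the group.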

How the results depend on the processing

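Single-gene values were counted here only if their unadjusted p was under 0.05 in the main fit. SGK1 in the thyroid and its difference in response to cold against AT were always counted. Most single-gene values near 0 were therefore left out. Of these and the correlation values recomputed under all alternatives, 530 kept their direction and side of the threshold and 35 newly passed it. Another 32 no longer did and 7 turned sign, and the cause was not tested. Those that turned were TSC22D3 in BAT, cold against control (−0.011 with all 3 controls and TMM scaling, −0.054 with Control 2 in place of Control 1 and −0.061 in place of Control 3), NR3C1 in BAT against thyroid (−0.041, median-of-ratios), ZBTB16 in BAT against thyroid (−0.11, all 3 controls with TMM scaling), r of SGK1 with FKBP5 in BAT (0.29 in AT lambs) and r of ZBTB16 with FKBP5 in thyroid (−0.24 without the 2 farthest lambs). FKBP5 in BAT and ZBTB16 in the thyroid, not counted here, also turned against control with all 3 controls.

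Of the 9 genes in BAT, 0 were called in cold against control in the main fit, beside 1.48% of all genes. This count was 1 with only 2 groups fitted, 1 without Cold 2 and AT 4, and 2 with Control 2 in place of Control 3. In AT against control the count of 1 became 2 by DESeq2, with all 3 controls and without Cold 2 and AT 4. It was also 2 with Control 2 in place of Control 3 (NR3C1 and NR3C2, SGK1 being lost), and 3 with all 3 controls and TMM scaling. Of all genes, 9.3% were called there in the main fit, 12.1% with all 3 controls and 19.2% with TMM scaling added. When Control 2 replaced Control 1, HSD11B2 was called there and SGK1 was not. In cold against AT the count of 1 became 0 with all 3 controls, when Control 2 replaced either kept control, and without Cold 2 and AT 4. Of all genes, 0.309% were called there in the main fit and 0% with all 3 controls. Of 8 genes in the thyroid, 0 were called against control, but in cold lambs 1 by DESeq2, with all 3 controls, with these and TMM scaling, with only 2 groups fitted and with Control 2 in place of Control 1, and 3 with Control 2 in place of Control 3. In AT lambs it was 2 with all 3 controls, 2 with Control 2 in place of Control 1 and 3 in place of Control 3. Of all thyroid genes, 19.3% were called in cold and 21% in AT lambs in the main fit. The shares were 17.5% and 16.3% with all 3 controls, and 12.7% and 10.3% with TMM scaling added. Shares under the other alternatives are not given here. Leaving out 1 lamb at a time gave 0 to 1, 0 to 2 and 0 to 1 calls in BAT (cold against control, AT against control, cold against AT), 0 to 1, 0 to 1 and 0 to 0 in the thyroid, 5 to 8 for BAT against thyroid and 0 to 0 for a difference in response.

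With the lamb as a replicate block, 7 of 9 genes differed between the tissues and 0 in response. Without the block, 71.0% of 17021 genes differed between the tissues. The share of all genes with the block is not given here, so the 7 is no result about these genes. DESeq2 called 1 of the 9 for response. Of relations between tissues, 2 passed, but 1 with TMM scaling and 0 in cold lambs, in AT lambs or without the 2 farthest lambs. Of relations with FKBP5, 0 passed by r, but 1 in cold and 1 in AT lambs, and by rho 1 in cold and 2 in AT lambs.

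With 2 kept controls, every comparison with control rests on few libraries, and 1 control decided several calls. HSD11B2 in the thyroid, with 1 to 19 reads, was too low to test, and in BAT it had 10 to 116 reads in 14 lambs and 2 in Control 2. Scaling by 3 reference genes left the median gene at −0.28 against control in the thyroid.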
